A study of Saccharomyces cerevisiae with 12 samples.

Results

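The comparison of evolved line 6 with WT covers every named gene of the yeast *Saccharomyces cerevisiae* with enough counts, 6372 of the 7108 named features of the series, in 3 libraries of line 6 and 3 of WT out of 12 libraries in all. WT here means *ulp2Δ* cells that carry *ULP2* on the *URA3*-marked plasmid YCplac33, so the chromosomal deletion is shared by every group. Line 6 descends from such cells. In the scheme of the study, FOA medium removed the *ULP2* plasmid, and the steps after it were transformation with either the empty *URA3*-marked vector or the *ULP2* plasmid, and passaging in rich YPD medium, for 500 generations in the case of line 6. Whether the cells sequenced as line 6 held the empty vector is not given in the sources used here. Line 6 is 1 evolved line, and its 3 libraries are replicates of that line rather than of evolution. A second line, line 9, was passaged for the same 500 generations. Nascent *ulp2Δ* cells are those from before the long passaging. Both evolved lines are described in the study as carrying a missense change in Uba2, a subunit of the SUMO-activating enzyme, and one of them a further change. The labels do not tie a line number to either genotype. Cells were described as growing exponentially in YPD when RNA was taken. Whether the replicates came from separate cultures is not given in the sources used here, so the p-values measure only the spread between these libraries. *URA3*, the plasmid marker, and *TRP1* also differed in level between WT and line 6. The effects of *ULP2* loss, of the differences in *URA3* and *TRP1* and of changes during passaging cannot be told apart in this comparison.

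SUMO is a small protein that is joined to other proteins by an activating enzyme (Aos1 and Uba2), the conjugating enzyme Ubc9 and ligases such as Siz1, and is removed by the proteases Ulp1 and Ulp2. Ulp2 works in the nucleus and trims chains of SUMO. Growing yeast spends much of its transcription on ribosomes, through coordinated sets of ribosomal protein genes and ribosome biogenesis genes, and lowers both sets when nutrients run short. Genes for alternative carbon sources, storage carbohydrates and stress proteins usually move the other way.

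Named genes held 20467216 to 30719553 counts in each of the 12 libraries. The WT libraries held 22238141 to 26280989 and the line 6 libraries 23117780 to 29258749. Values are given as CPM, counts per 1000000 counts of a library after TMM normalisation, for replicates 1, 2 and 3 in that order. *ULP2* (YIL031W, chromosome IX, 292633 to 295737 in the R64 assembly, which is sacCer3) had 370.1, 388 and 402 CPM in WT and 0.173, 0.111 and 0.184 in line 6, from 4, 3 and 4 counts. *URA3*, the plasmid marker, had 2140, 2178 and 2118 CPM in WT and 118, 128 and 127 in line 6. *TRP1*, a gene of tryptophan synthesis, had 674, 623 and 807 counts in WT and 0 in each line 6 library. Nascent cells had 0, 0 and 3 counts of it and line 9 had 0, 0 and 2. WT thus differed at *TRP1* from every group without the *ULP2* plasmid, including the cells from before the long passaging. Taking 3 counts per library as the limit that a count of 0 allows, *TRP1* was at least 210-fold lower in line 6. *YDR008C*, an open reading frame that overlaps *TRP1*, was at 0 in each line 6 library and at least 39-fold lower there than in WT. The labels give no mating type, and the 7 markers of MATa cells far exceeded the 4 of MATα cells, which summed to at most 0.0124% of CPM in any library of WT or line 6. Markers of stress and late growth stage, 8 genes, were abundant in all groups. They summed to 2.51%, 2.61% and 2.52% of CPM in WT and 2.74%, 2.69% and 2.74% in line 6. *HSP12*, a small membrane-stabilising stress protein, was the gene with the highest level per length in both groups, at 20860 CPM per kb in WT and 27070 in line 6. *PCK1*, a gluconeogenic enzyme gene that glucose represses, was picked with its values in view. The median log2 fold change of the glyoxylate cycle and gluconeogenesis list was 0.6. *PCK1* itself stood at 8021, 8123 and 7760 CPM in WT and 5227, 5183 and 5006 in line 6. These levels sit beside a description of exponential growth in glucose medium, and the part that growth stage plays in the differences was not tested. In 45 tested genes the libraries of WT or of line 6 lay more than 8-fold apart among themselves. Among them is *IFH1*, a coactivator of ribosomal protein genes, with 5060, 30 and 29 counts in line 6 and 29, 26 and 27 in WT. No direction is drawn for this gene, which was picked with its values in view.

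Small differences were widespread and 2-fold changes were mostly falls. Calls required a change of at least 2-fold and a p under 0.05 by edgeR's quasi-likelihood test, adjusted by the method of Benjamini and Hochberg over all tested genes. Line 6 had 287 genes called higher than WT (4.5% of those tested) and 672 called lower (10.5%). Counts of list members called against WT are to be read beside these shares, and several lists lie near them. The libraries of line 6 and WT did not overlap in 284 of the called rises and 655 of the called falls. An adjusted p under 0.05 alone was reached by 2346 higher and 2372 lower genes, which together are 74% of those tested. Changes of 4-fold or more were found for 45 called rises and 100 called falls, and 23 of these rises carry only a systematic name. The median log2 fold change over all tested genes was -0.01, with quartiles of -0.43 and 0.36. Of the calls named below, those of *GDB1*, *FBA1*, *NTH2*, *ATH1*, *PHO89*, *FTR1*, *SOL4*, *TIR2*, *RAP1*, *TOF2* and *SPS2* were lost under at least 1 alternative setting. Scaling by library totals in place of TMM moved that median to -0.11, and the changes below are relative to the TMM scale.

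**Figure D1:**
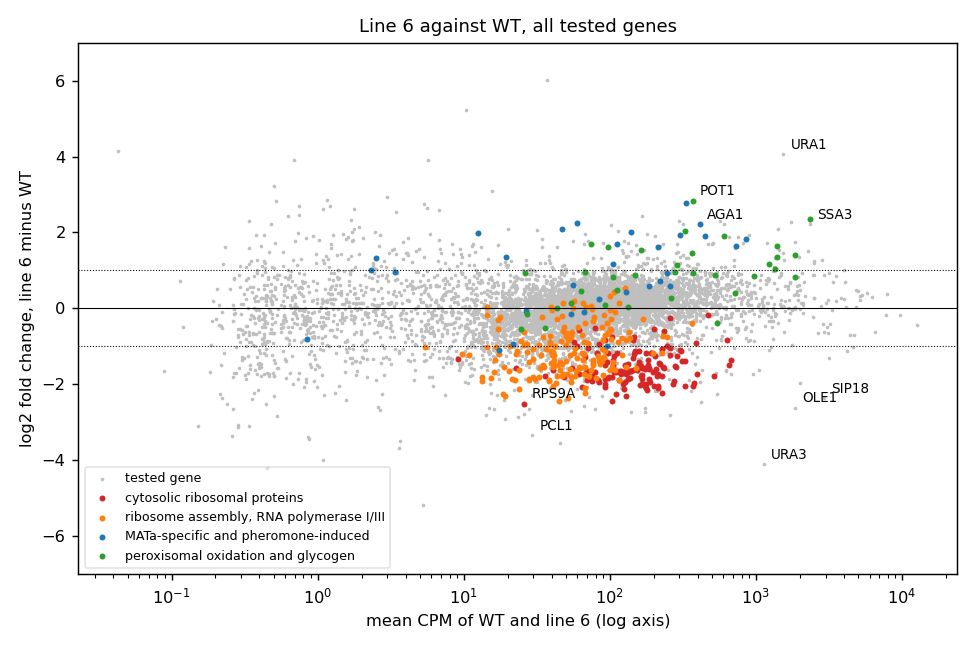
Log2 fold change of line 6 minus WT (vertical axis) against mean CPM of both groups (horizontal log axis), 1 point for each tested gene with a change within ±7. Dotted lines mark 2-fold. The red ribosomal protein genes and orange ribosome assembly genes lie mostly below -1, and the blue mating genes and green oxidation and glycogen genes lie mostly above 0.

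Most genes of the cytosolic ribosome fell in line 6. Of 57 small subunit protein genes, 50 were called lower and 0 higher, and of 81 large subunit genes 71 were called lower and 0 higher, against 10.5% called lower among all tested genes. Their median log2 fold changes were -1.59 and -1.63, and the adjusted p was under 0.05 for each of the 138 genes. Together they made up 3.54%, 3.49% and 3.44% of CPM in WT and 1.25%, 1.28% and 1.27% in line 6. The sum of the late-stage markers differed less, at 2.51% to 2.61% in WT and 2.69% to 2.74% in line 6. That sum hides opposite moves of single markers, with log2 fold changes of -2.4 for *SIP18*, -1.6 for *GRE1* and 2.2 for *SSA3*. The part of growth stage in the fall of ribosomal protein genes was not tested. In these bulk libraries fewer cells in a given state and less RNA per cell cannot be told apart. *RPS9A*, a small subunit protein gene, had 43.4, 46.5 and 42.9 CPM in WT and 7.05, 7.22 and 8.99 in line 6, the largest called fall of its list (log2 fold change -2.52, SE 0.105, adjusted p = 7.32e-12 by edgeR's quasi-likelihood test). Its partner copy *RPS9B* fell from 304, 269 and 286 to 63.95, 66.6 and 68.2 CPM. *RPS18B* stood at 181, 183 and 186 CPM in WT and 37.3, 38.1 and 40.8 in line 6. For large subunit genes, *RPL8A* had 179, 179 and 165 CPM in WT and 32.95, 29.2 and 34.3 in line 6 (-2.44, SE 0.062, adjusted p = 2.48e-14, same test), and *RPL24A* had 209, 213 and 219 CPM in WT and 44.2, 43.9 and 42.4 in line 6. None of these libraries overlapped between the groups. Many of these genes exist as near-identical A and B copies whose reads may have been divided between them, and among genes with no such copy the medians were -1.79 and -1.73 on the log2 scale.

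Most of the factors that build ribosomes fell too. Of 62 genes for the small subunit processome and pre-40S particles 41 were called lower, and of 77 genes for pre-60S assembly 48 were called lower, with 0 called higher in either list. The medians were -1.23 and -1.35. *HAS1*, a DEAD-box RNA helicase, had 82.1, 75.4 and 71.5 CPM in WT and 14.1, 13.5 and 14.8 in line 6, a log2 fold change of -2.44 (SE 0.066, adjusted p = 5.57e-14 by edgeR's quasi-likelihood test). *DBP2*, another DEAD-box helicase, had 85.8, 87.1 and 86.7 CPM in WT and 15.3, 17.01 and 18.3 in line 6. *NOG1*, a GTPase of the pre-60S particle, had 109.5, 111 and 114 CPM in WT and 24.5, 25.1 and 21.6 in line 6. On the small subunit side *NOP1*, the fibrillarin methyltransferase that works with box C/D guide RNAs, had 188, 185 and 172 CPM in WT and 48.7, 47.2 and 50.8 in line 6. *IMP3*, a processome protein that binds the U3 RNA, fell by 1.92 on the log2 scale and *UTP13* fell by 1.92. All of these groups were separate. RNA polymerase I and III genes were more mixed. Of 35, 13 were called lower and 0 higher, with a median of -0.39. The 4 with the largest falls were subunits of RNA polymerase I, the enzyme that makes the large ribosomal RNA precursor. *RPA43* had 33.2, 29.5 and 33.7 CPM in WT and 6.18, 7.33 and 5.86 in line 6 (-2.31, SE 0.101, adjusted p = 1.29e-11, same test), and *RPA49*, *RPA34* and *RPA135* fell by 1.81, 1.55 and 1.47.

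The promoters of these genes share short sequences, which are given as description. PAC (GATGAG) and RRPE (AAAATTTT) are elements known from yeast ribosome biogenesis promoters. Each promoter was taken as the 250 bases before the start codon and 50 bases after it, on the R64 assembly, and both strands were searched. PAC and RRPE cannot overlap one another. PAC occurred in 20.1% of all 5823 promoters, in 35.3% of those of genes called lower and in 13.0% of those called higher. It occurred in 57 of the 62 small subunit assembly promoters (91.9%) and 69 of the 77 pre-60S promoters (89.6%). RRPE occurred in 9.1% of all promoters, 25.7% of those called lower and 4.5% of those called higher, and in 80.6% and 76.6% of the same assembly lists. A match is a run of letters and not a measured binding site. The 3 genes shown here have the largest falls among called assembly and polymerase genes with both elements in the 160 bases from 250 to 91 before the start codon. They are written from 5′ to 3′ on the strand of the gene, with matches to either strand in capitals. *HAS1* is at chrXIII:851682-851841 (minus strand), *DBP2* at chrXIV:413389-413548 (plus strand) and *RPA43* at chrXV:960273-960432 (minus strand).
HAS1: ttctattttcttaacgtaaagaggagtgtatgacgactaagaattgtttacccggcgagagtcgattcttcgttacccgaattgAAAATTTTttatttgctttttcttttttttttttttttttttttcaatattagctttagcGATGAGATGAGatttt
DBP2: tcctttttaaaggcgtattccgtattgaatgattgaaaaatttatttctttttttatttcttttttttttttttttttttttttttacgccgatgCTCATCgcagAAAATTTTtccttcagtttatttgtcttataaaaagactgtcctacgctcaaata
RPA43: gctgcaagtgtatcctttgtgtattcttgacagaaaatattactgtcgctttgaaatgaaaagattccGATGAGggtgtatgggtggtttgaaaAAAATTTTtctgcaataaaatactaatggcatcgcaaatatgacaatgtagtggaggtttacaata

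Other parts of the translation apparatus fell less or did not pass the test. Of 40 translation factor genes 9 were called lower and 0 higher, with a median of -0.59. *YEF3*, the fungal elongation factor that releases tRNA from the ribosome, had 1036, 1011 and 1051 CPM in WT and 326, 319.7 and 292 in line 6. *NIP1*, a subunit of eIF3, had 213, 214 and 225 CPM in WT and 80.1, 79.5 and 78.4 in line 6. Of 19 cytosolic aminoacyl-tRNA synthetase genes 4 were called lower, namely *KRS1*, *VAS1*, *GRS1* and *SES1* with log2 fold changes of -1.33, -1.17, -1.05 and -1.04. *SSB1* and *SSB2* encode near-identical Hsp70 chaperones that bind nascent chains on the ribosome, and their reads may be divided between them. *SSB1* had 560.2, 537 and 549 CPM in WT and 150.4, 151 and 144 in line 6. *SSB2* had 588, 551 and 558 CPM in WT and 208, 213 and 189 in line 6. Both were picked with their values in view. The 74 mitochondrial ribosomal protein genes gave 0 calls by edgeR's quasi-likelihood test and 0 by DESeq2, with a median of -0.03 and a range from -0.53 to 0.38. An unadjusted p under 0.05 was reached by 12 of them in the higher direction and 28 in the lower. Of 31 regulators of growth and nutrient response only *RAP1*, a DNA-binding protein of ribosomal protein promoters and telomeres, was called lower (-1.004), at 77.04, 83.99 and 82.9 CPM in WT and 42.4, 38.99 and 40.3 in line 6.

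**Figure D2:**
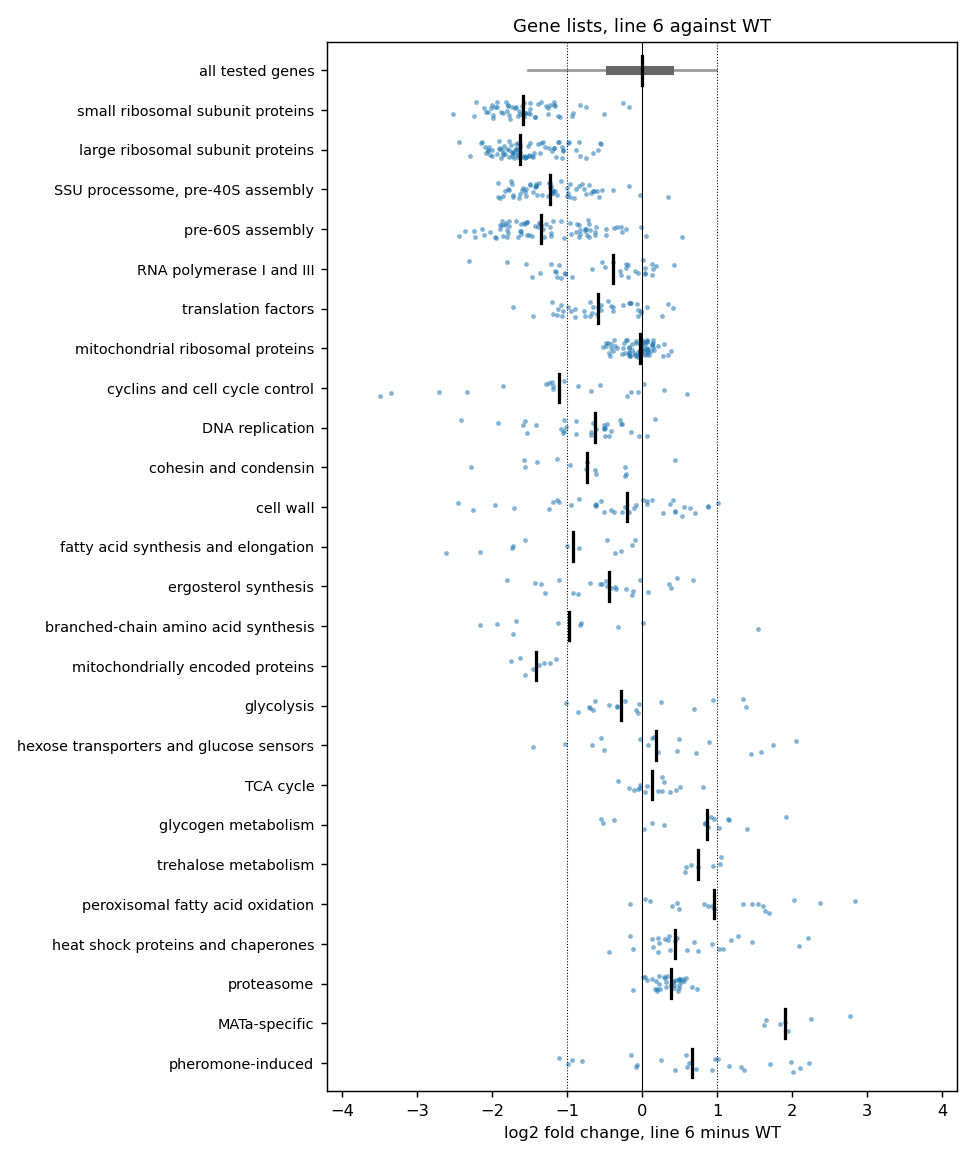
Log2 fold change of line 6 minus WT for the members of 25 gene lists, 1 point for each gene, with the list median as a black bar. The top row gives all tested genes by their median, quartiles (thick) and 5th to 95th percentile (thin). Cytosolic ribosomal proteins centre near -1.6, mitochondrial ribosomal proteins near 0 and MATa-specific genes near 1.9.

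Of 20 cyclin and cell cycle control genes 11 were called lower and 0 higher, against 10.5% called lower among all tested genes, with a median of -1.11. *CLN1*, a G1 cyclin that starts the cell cycle, had 92.8, 94.2 and 94.3 CPM in WT and 13.8, 13.5 and 15.9 in line 6 (log2 fold change -2.71, SE 0.065, adjusted p = 1.63e-14 by edgeR's quasi-likelihood test). Its partner *CLN2* had 116, 124 and 119 CPM in WT and 24.9, 22.9 and 23.5 in line 6. *PCL1*, a cyclin of the Pho85 kinase, had 54.6, 56.7 and 49.1 CPM in WT and 5.71, 4.602 and 5.49 in line 6. *CLB6*, an S-phase cyclin, stood at 6.17, 6.64 and 7.33 CPM in WT and 0.649, 0.331 and 0.83 in line 6, from mean counts of 162 and 14. *CLN3*, the upstream G1 cyclin, was not called (-0.20), nor was *SWI4*, which encodes the DNA-binding subunit of SBF (-0.06, adjusted p = 0.269). Both were likewise picked with their values in view. Of 13 DNA damage and ribonucleotide reductase genes 2 were called lower and 0 higher, with a median of -0.56, beside 10.5% called lower among all tested genes, and an adjusted p under 0.05 was reached by 5 in the higher direction and 8 in the lower. The called genes were *RNR1* and *DUN1*. *RNR1*, the large subunit of ribonucleotide reductase, fell from 112, 117 and 115 to 19.1, 17.7 and 20.7 CPM (-2.58, SE 0.059, adjusted p = 9.47e-15, same test), and the checkpoint kinase gene *DUN1* from 53.9, 48 and 52.2 to 24.9, 24.7 and 24.5. The 11 histone genes gave 0 calls by edgeR's quasi-likelihood test and 0 by DESeq2, with a median of -0.18, and an unadjusted p under 0.05 for 4 higher and 7 lower genes.

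Lists of replication and chromosome structure genes were added after the values were seen and are given as counts. Of 32 DNA replication genes 11 were called lower and 0 higher, with a median of -0.63. *POL30*, the sliding clamp PCNA, had 79.1, 86.3 and 82.4 CPM in WT and 14.96, 15.1 and 16.3 in line 6. *CDC21*, thymidylate synthase, had 47.1, 48 and 49.9 CPM in WT and 13.2, 12.96 and 11.99 in line 6, and the flap endonuclease gene *RAD27* had 74.7, 65.2 and 75.6 CPM in WT and 23.4, 25.3 and 24.4 in line 6. Of 14 cohesin and condensin genes 5 were called lower and 0 higher. *MCD1*, the kleisin of mitotic cohesin, had 49.4, 47.1 and 50.2 CPM in WT and 9.901, 11.3 and 9.04 in line 6. *PDS5*, *YCS4*, *BRN1* and *ECO1* fell by 1.56, 1.58, 1.41 and 1.14 on the log2 scale. The MCB element (ACGCGT), known as the site of the G1 to S regulator MBF and also added later, occurred in 3.1% of all promoters, 6.1% of those called lower and 17 of the 32 replication promoters (53.1%). It occurred in 0 of the 20 cyclin promoters. The SCB element (CACGAAA) occurred in 4.2% of all promoters and 5.0% of the cyclin list within this window. MCB reads the same on both strands, and the 2 elements can share 1 end letter. The 3 replication and chromosome genes with MCB and the largest falls follow, over the same 160 bases and with MCB in capitals. *POL30* is at chrII:425857-426016 (minus strand), *CDC21* at chrXV:467680-467839 (minus strand) and *POL32*, a subunit of DNA polymerase delta, at chrX:517604-517763 (minus strand).
POL30: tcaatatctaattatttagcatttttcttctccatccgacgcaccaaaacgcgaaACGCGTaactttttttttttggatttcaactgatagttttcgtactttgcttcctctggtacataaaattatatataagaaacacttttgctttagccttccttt
CDC21: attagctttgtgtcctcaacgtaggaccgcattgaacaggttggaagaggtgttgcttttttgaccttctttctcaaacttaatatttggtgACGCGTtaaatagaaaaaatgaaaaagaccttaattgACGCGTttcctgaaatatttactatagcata
POL32: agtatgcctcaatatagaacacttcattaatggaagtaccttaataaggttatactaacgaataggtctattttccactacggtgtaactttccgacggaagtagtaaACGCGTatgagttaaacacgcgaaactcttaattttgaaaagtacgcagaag

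Of 38 cell wall genes 8 were called lower and 1 higher, beside 10.5% and 4.5% of all tested genes, with a median of -0.20. *GAS1*, a glucan-remodelling enzyme at the cell surface, had 943, 894 and 849.5 CPM in WT and 200, 175 and 187 in line 6. *CIS3*, a mannoprotein of the wall, had 748, 733 and 651 CPM in WT and 123, 133 and 131 in line 6. *CWP2*, another wall mannoprotein, had 3376, 3552 and 2649 CPM in WT and 800.4, 822 and 844 in line 6. These 3 genes were lower in every line 6 library than in every WT library. The 1 called rise was *TIR2*, at 18.9, 18.1 and 13.3 CPM in WT and 32.99, 32.2 and 36.7 in line 6. Of 13 daughter cell separation genes *SWI5*, a transcription factor of late mitosis, and *DSE2* were called lower (-2.08 and -1.23), and *AMN1*, an inhibitor of mitotic exit, was called higher (1.19).

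Called genes of lipid synthesis were all lower and called genes of fatty acid breakdown all higher. Of 12 genes of fatty acid synthesis and elongation, a list added after the values were seen, 6 were called lower and 0 higher, with a median of -0.92. *OLE1*, the only fatty acid desaturase of yeast, had 3164, 3166 and 3196 CPM in WT and 497, 524 and 532 in line 6 (log2 fold change -2.62, SE 0.051, adjusted p = 2.03e-15 by edgeR's quasi-likelihood test). *ACC1*, acetyl-CoA carboxylase, had 1461, 1471 and 1476 CPM in WT and 452, 452 and 420.2 in line 6. *FAA4*, an acyl-CoA synthetase, fell by 2.17 on the log2 scale and the elongase gene *ELO3* by 1.72. Of 24 ergosterol synthesis genes 5 were called lower and 0 higher, with a median of -0.44. They were *ERG3*, *ERG5*, *ERG2*, *ERG11* and *ERG1*, and *ERG3*, a sterol desaturase, had 264, 262 and 239 CPM in WT and 73.98, 73.3 and 71.7 in line 6. Peroxisomal genes break fatty acids down. Of 19, 9 were called higher and 0 lower against 4.5% of all tested genes, with a median of 0.96. *POT1*, the thiolase of the last step of each oxidation round, had 90.5, 89.95 and 90.98 CPM in WT and 674, 649.9 and 616 in line 6 (2.84, SE 0.038, adjusted p = 1.31e-16, same test). *CTA1*, the peroxisomal catalase, had 123, 133 and 133 CPM in WT and 544, 508 and 536 in line 6, and *POX1*, the acyl-CoA oxidase of the first step, had 33.6, 35.3 and 37.05 CPM in WT and 119.5, 109 and 113 in line 6. *YAT2*, a carnitine acetyltransferase that helps move acetyl units to mitochondria, had 741, 806 and 756 CPM in WT and 4053, 4010 and 3800 in line 6.

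Among genes of carbon use, some storage carbohydrate and sugar transporter genes rose while the central pathways gave few calls. Of 16 glycogen genes 5 were called higher and 0 lower, with a median of 0.86. *GSY1*, a glycogen synthase, had 254, 261 and 245 CPM in WT and 981, 986 and 891 in line 6 (log2 fold change 1.91, SE 0.043, adjusted p = 8.73e-15 by edgeR's quasi-likelihood test). *GLC3*, the branching enzyme, had 1024, 1014 and 1040 CPM in WT and 2816, 2744 and 2542 in line 6, *GLG1*, a glycogenin that primes the chain, had 178, 182 and 184 CPM in WT and 401, 400.2 and 396 in line 6, and *GSY2*, the main synthase, had 772, 789.5 and 722 CPM in WT and 1723, 1721 and 1671 in line 6. *GDB1*, the debranching enzyme, stood just over the 2-fold limit at 885, 908 and 883 CPM in WT and 1897, 1806 and 1746 in line 6 (1.03). Synthesis and breakdown enzymes of glycogen were thus both among the rises. Of 7 trehalose genes the trehalases *NTH2* and *ATH1* were called higher (1.05 and 1.04), and each of the 7 had an adjusted p under 0.05 in that direction.

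Of 18 hexose transporter and sensor genes 4 were called higher and 2 lower. *HXT6* and *HXT7* are near-identical high-affinity transporters whose reads cannot be firmly assigned. *HXT6* had 871, 843 and 850.3 CPM in WT and 2849, 2890 and 2853 in line 6, and *HXT7* had 358, 354 and 364 CPM in WT and 1129, 1069 and 1028 in line 6. *GAL2*, a galactose transporter of the same family, was also called higher (1.45). *HXT13* rose from 12.7, 13.5 and 10.8 to 53.2, 51.7 and 48.4. *HXT1*, a low-affinity transporter used at high glucose, fell from 14.3, 13.7 and 12.96 to 5.23, 5.63 and 4.01. *HXT9* was the other called fall (-1.03). Of 18 glycolytic genes 2 were called higher and 1 lower, with a median of -0.29. The rises were *HXK1*, a hexokinase, from 1117, 1111 and 1111 to 2922, 2871 and 2664 CPM (1.34, SE 0.04, adjusted p = 1.49e-13 by edgeR's quasi-likelihood test), and *PYK2*, a pyruvate kinase isoform (1.38). The fall was *FBA1*, aldolase (-1.02). Of 14 fermentation and acetate genes 3 were called lower, namely *ALD5*, *ADH1* and *ADH2*. *ADH1*, the main fermentative alcohol dehydrogenase, had 4844, 4594 and 4171 CPM in WT and 1936, 1869 and 1712 in line 6, and *ADH2*, the isoform that oxidises ethanol, had 784, 782 and 709 CPM in WT and 378, 374 and 347 in line 6. Of 13 glyoxylate cycle and gluconeogenesis genes 2 were called higher, *CIT2*, the peroxisomal citrate synthase, from 1495, 1528 and 1564 to 3576, 3497 and 3353 CPM, and *ADY2*, an acetate transporter, from 284, 279 and 284 to 1096, 1049 and 966. *SIP4*, an activator of gluconeogenic genes, was the 1 call among 24 glucose repression and respiration regulators, at 138, 136 and 137 CPM in WT and 430.1, 442 and 449 in line 6.

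Nuclear and mitochondrial genes of respiration did not move together. The 16 TCA cycle genes and the 14 nuclear ATP synthase genes gave 0 calls by edgeR's quasi-likelihood test and 0 by DESeq2, with medians of 0.14 and -0.01. An unadjusted p under 0.05 was reached by 8 TCA genes in the higher direction and 3 in the lower, and by 3 and 4 ATP synthase genes. Of 23 nuclear respiratory chain genes 2 were called higher and 0 lower. These were *CYC7* and *COX5B*, the minor isoforms of cytochrome c and of a cytochrome oxidase subunit that are known to be favoured at low oxygen. *CYC7* had 108, 107 and 123 CPM in WT and 502, 537 and 532 in line 6 (2.22, SE 0.059, adjusted p = 4.83e-14, same test), and *COX5B* had 70.9, 69.9 and 75.8 CPM in WT and 222, 235 and 231 in line 6. All 8 tested protein genes of the mitochondrial genome were called lower, with a median of -1.42. *COB*, cytochrome b, had 19.1, 15.6 and 17.9 CPM in WT and 5.88, 5.04 and 4.71 in line 6, *OLI1*, a subunit of the ATP synthase, had 141, 153 and 144 CPM in WT and 46.7, 41.6 and 53.6 in line 6, and *COX2* had 52.4, 56.6 and 66.3 CPM in WT and 21.6, 19.2 and 18.6 in line 6. These genes summed to between 0.0355% and 0.0386% of CPM in WT and between 0.012% and 0.0137% in line 6, a small share in both groups. The study's methods do not state how RNA was selected for the libraries. The part of that step in the low mitochondrial values and in their difference was not tested.

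**Figure D3:**
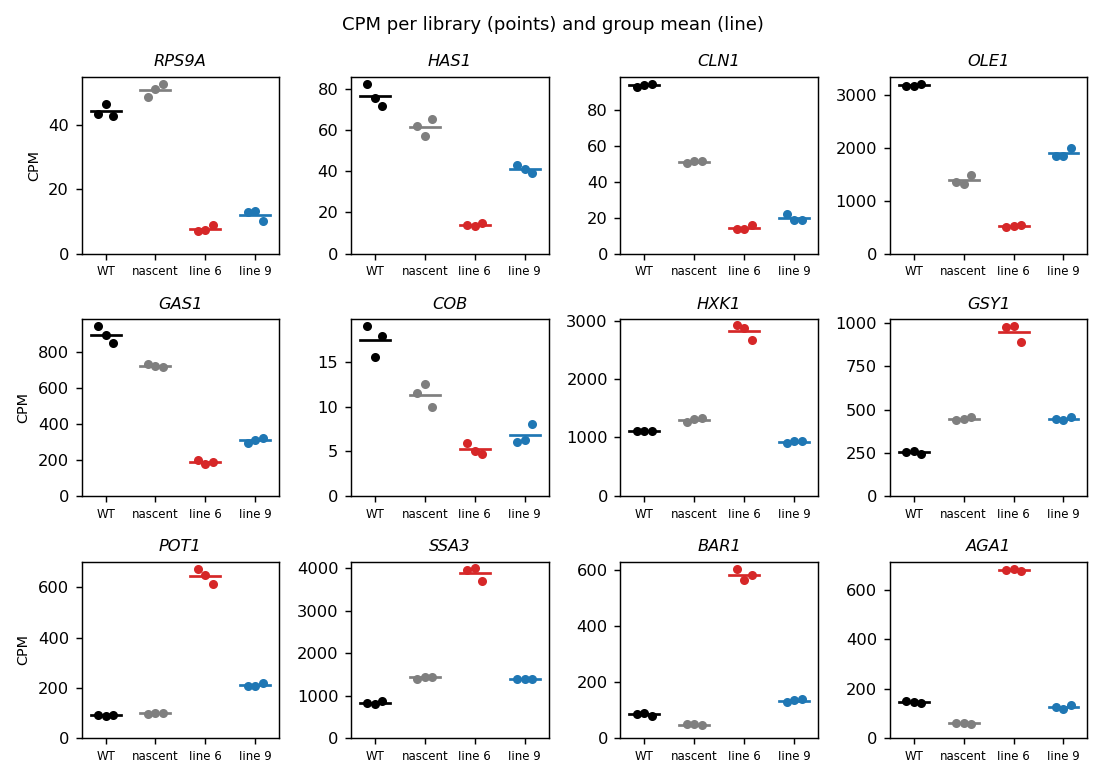
CPM in each library (points) and group mean (line) for 12 genes, on linear axes that start at 0, in WT, nascent ulp2Δ, line 6 and line 9. The 3 line 6 points lie below the WT points for the first 6 genes and above them for the last 6.

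Nucleotide and amino acid genes gave changes in both directions. *URA1*, dihydroorotate dehydrogenase of pyrimidine synthesis, had 174, 177 and 171 CPM in WT and 2962, 2910 and 2840 in line 6, the largest rise by the naming rule (log2 fold change 4.06, SE 0.038, adjusted p = 1.18e-18 by edgeR's quasi-likelihood test). *URA2*, which catalyses the first steps, had 610.3, 601 and 597 CPM in WT and 3000, 2897 and 2783 in line 6, *URA4*, dihydroorotase, had 105, 109 and 114 CPM in WT and 360.5, 362 and 335 in line 6, and *FUI1*, the uridine permease, had 55.1, 54.1 and 47.2 CPM in WT and 289, 285 and 262 in line 6. These were the 4 called rises among 16 pyrimidine genes. *URA3*, which encodes another enzyme of this pathway and is the marker of the WT plasmid, had 2140, 2178 and 2118 CPM in WT and 118, 128 and 127 in line 6, and effects of that difference cannot be told apart from those of *ULP2* loss and passaging. *URA7*, CTP synthase, had 44.3, 47.9 and 43.5 CPM in WT and 6.14, 6.08 and 7.47 in line 6 and was called lower, as was *FUR1* (-1.49). Of 20 purine genes *GUA1*, *IMD3* and *PRS1* were called lower. *GUA1*, GMP synthase, had 348, 336 and 326 CPM in WT and 71.2, 77.4 and 74.3 in line 6. Of 10 branched-chain amino acid genes 5 were called lower and 1 higher, with a median of -0.98. *ILV2*, acetolactate synthase, had 600.2, 599.7 and 574 CPM in WT and 138, 128 and 129 in line 6, and *ILV3* had 661, 685 and 636 CPM in WT and 179.8, 177 and 162 in line 6. The aminotransferase isoforms went opposite ways, as the mitochondrial *BAT1* had 237, 255 and 233 CPM in WT and 74.1, 74.2 and 77.5 in line 6 and the cytosolic *BAT2* had 735, 770.5 and 696 CPM in WT and 2200, 2128 and 2073 in line 6. Of 9 arginine synthesis genes 2 were called lower and 0 higher, with a median of -0.03 and an adjusted p under 0.05 for 2 higher and 4 lower genes. *ARG1*, argininosuccinate synthetase, was one of the called genes and fell from 316, 308 and 291 to 47.5, 43.3 and 46.2 CPM. Apart from *TRP1*, none of the 5 tryptophan synthesis genes was called. Of 24 nitrogen catabolite repressed genes 2 were called higher and 2 lower, beside 4.5% and 10.5% of all tested genes. *PUT1*, proline oxidase, and *CAR2*, ornithine transaminase, were called higher (1.88 and 1.32). *DAL1* and *DCG1* were called lower (-1.80 and -1.42) from low levels, *DAL1* at 3.45, 3.23 and 3.495 CPM in WT and 0.692, 1.69 and 0.461 in line 6.

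Nutrient regulons gave calls in both directions, beside 4.5% called higher and 10.5% called lower among all tested genes. Of 15 phosphate genes 4 were called lower and 1 higher. *PHO5*, a secreted acid phosphatase, had 414, 414 and 375 CPM in WT and 115, 109 and 108 in line 6, and *PHO84*, the high-affinity phosphate transporter, had 706, 662 and 671 CPM in WT and 318, 319 and 284 in line 6. *PHO89*, a sodium-coupled transporter, was the rise, at 69.9, 62.6 and 67.8 CPM in WT and 138, 139 and 131 in line 6. Of 20 thiamine and vitamin B6 genes 8 were called lower and 0 higher. *PHO3*, a thiamine-regulated acid phosphatase, had 206, 210 and 188 CPM in WT and 54.3, 52.9 and 56.4 in line 6. *SNZ2* and *SNZ3*, near-identical copies, fell by 1.57 and 1.66. Of 21 iron regulon genes 3 were called higher and 1 lower. *SIT1*, a siderophore transporter, had 48.3, 41.9 and 43.1 CPM in WT and 198, 184 and 171 in line 6, while *FTR1*, the permease of the reductive iron uptake pathway, had 96.7, 92.7 and 98 CPM in WT and 51.1, 44.9 and 44 in line 6.

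Some chaperone genes rose. Of 25 heat shock protein and chaperone genes 7 were called higher and 0 lower, against 4.5% called higher among all tested genes, with a median of 0.44. *SSA3*, an inducible Hsp70, had 838, 808 and 863 CPM in WT and 3963, 3998 and 3697 in line 6 (log2 fold change 2.21, SE 0.04, adjusted p = 1.67e-15 by edgeR's quasi-likelihood test). *HSP82*, the inducible Hsp90, had 529, 529 and 560 CPM in WT and 2319, 2426 and 2148 in line 6, and *HSP42*, a small heat shock protein, had 812, 820.2 and 799.6 CPM in WT and 2182, 2240 and 2278 in line 6. Of 20 genes known as Msn2 and Msn4 targets 1 was called higher and 2 lower, which is near the shares over all tested genes (4.5% and 10.5%). *SOL4* was the rise (1.09). *SIP18* and *GRE1*, hydrophilins of desiccation and late growth, were the falls, *SIP18* from 4480, 5226 and 4895 to 903, 918 and 1005 CPM and *GRE1* from 929.5, 966 and 926 to 299.8, 310.4 and 311. Among the 8 late-stage markers *SSA3* was thus called higher, *SIP18* and *GRE1* lower, and *HSP12*, *HSP26*, *SPI1*, *CTT1* and *TMA10* were not called (0.38, -0.16, 0.59, -0.02 and 0.89). The 35 proteasome genes gave 0 calls by edgeR's quasi-likelihood test and 0 by DESeq2, with a median of 0.38, and 31 of them had an unadjusted and an adjusted p under 0.05 in the higher direction. The stress response element (AGGGG), bound by Msn2 and Msn4, occurred in 21.8% of all promoters, 34.5% of those called higher and 13.9% of those called lower. It occurred in 14 of the 20 Msn2 and Msn4 target promoters (70.0%), although that list gave calls near the shares over all tested genes. For the glycogen and trehalose lists the shares were 43.8% and 57.1%. The 3 genes with the largest rises among called chaperone, glycogen, trehalose and general stress genes with this element are shown with it in capitals, over the same 160 bases. *HSP82* is at chrXVI:98716-98875 (minus strand), *HSP42* at chrIV:806371-806530 (plus strand) and *GLC3* at chrV:132870-133029 (plus strand).
HSP82: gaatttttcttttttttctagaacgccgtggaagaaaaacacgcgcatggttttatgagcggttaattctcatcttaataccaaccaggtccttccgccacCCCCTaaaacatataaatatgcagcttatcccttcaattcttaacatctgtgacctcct
HSP42: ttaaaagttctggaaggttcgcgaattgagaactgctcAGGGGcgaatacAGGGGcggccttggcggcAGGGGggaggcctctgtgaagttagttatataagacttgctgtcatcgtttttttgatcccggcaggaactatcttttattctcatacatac
GLC3: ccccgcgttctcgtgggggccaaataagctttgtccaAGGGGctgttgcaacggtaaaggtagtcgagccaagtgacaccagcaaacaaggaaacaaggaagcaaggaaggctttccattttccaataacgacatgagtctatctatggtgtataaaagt

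Most genes of the SUMO pathway itself changed little. Apart from *ULP2*, none of the 10 was called. An adjusted p under 0.05 was reached by 3 of the 10 in the higher direction and by 4, with *ULP2* among them, in the lower. *SMT3*, which encodes SUMO, had 235, 225 and 223 CPM in WT and 235, 226 and 238 in line 6 (0.04, SE 0.05, adjusted p = 0.541 by edgeR's quasi-likelihood test). *UBA2* had 105, 99.2 and 107 CPM in WT and 103, 105 and 97.1 in line 6, and its partner *AOS1* had 67.6, 71.03 and 68.2 CPM in WT and 72.3, 78.5 and 66.5 in line 6, with the libraries of both genes overlapping between groups. *UBC9*, the conjugating enzyme, had 59.98, 61.5 and 57.9 CPM in WT and 48.2, 53.5 and 54.2 in line 6, with separate libraries (-0.20, adjusted p = 0.00507, same test). *ULP1*, the other SUMO protease gene, had 104, 92.73 and 103 CPM in WT and 74.32, 90.47 and 93.35 in line 6, with overlapping libraries (-0.215, adjusted p = 0.0152, same test). *SIZ1*, a SUMO ligase, had 50.8, 54.8 and 58.7 CPM in WT and 81.1, 82.8 and 79.5 in line 6 (0.57, adjusted p = 7.68e-08), which is under the 2-fold limit. *SIR2*, the deacetylase of silencing, had 56.5, 54.4 and 52.5 CPM in WT and 60.7, 63.9 and 61.02 in line 6 (0.18). Of 17 silencing and ribosomal DNA stability genes the sirtuin gene *HST3* and *TOF2* were called lower (-1.12 and -1.01).

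Mating genes of MATa cells rose together. All 7 MATa-specific genes were called higher, with a median of 1.90 and a range from 1.62 to 2.76. *BAR1*, a secreted protease that destroys α-factor, had 86.9, 90.3 and 80.2 CPM in WT and 602, 564 and 582 in line 6 (log2 fold change 2.76, SE 0.049, adjusted p = 1.42e-15 by edgeR's quasi-likelihood test). *STE2*, the α-factor receptor, had 191, 193 and 184 CPM in WT and 716, 686 and 724 in line 6, and *STE6*, the exporter of a-factor, had 122, 127 and 125 CPM in WT and 489, 478 and 469 in line 6. The a-factor genes *MFA1* and *MFA2* rose by 1.83 and 1.65 on the log2 scale. The list summed to 0.122%, 0.13% and 0.123% of CPM in WT and 0.454%, 0.453% and 0.48% in line 6. Of 24 pheromone-induced genes 9 were called higher and 1 lower, with a median of 0.66. *AGA1*, the wall anchor of the a-agglutinin, had 149, 146 and 142 CPM in WT and 681, 683 and 678 in line 6. *FUS1*, a cell fusion protein, had 18.2, 18.1 and 17.3 CPM in WT and 75.7, 76.9 and 76.4 in line 6. *CIK1*, a kinesin-associated protein, was the fall, at 26.7, 22.3 and 22.6 CPM in WT and 12.5, 10.1 and 10.6 in line 6. The 7 genes of the pheromone signalling core gave 0 calls by the same test and by DESeq2, with a median of 0.12 and an unadjusted p under 0.05 for 4 higher and 0 lower genes. Of 4 MATα-specific genes *MF(ALPHA)1* and *MF(ALPHA)2* were called lower from low levels, *MF(ALPHA)1* having 6.81, 5.96 and 7.33 CPM in WT and 0.216, 0.81 and 0.507 in line 6. The list's median was -1.31 while its summed level was higher in line 6 (0.0116% to 0.0124% of CPM) than in WT (0.00706% to 0.00741%), and that sum was mostly *SAG1*, the α-agglutinin gene, at 60.9, 61.6 and 56.4 CPM in WT and 121, 119 and 113 in line 6. The pheromone response element (TGAAACA), bound by Ste12, occurred in 7.4% of all promoters, 11.7% of those called higher and 12 of the 24 pheromone-induced promoters. The 3 genes with the largest rises among called MATa-specific and pheromone-induced genes with the element are shown, with it in capitals. *BAR1* is at chrIX:322092-322251 (plus strand), *AGA1* at chrXIV:703449-703608 (plus strand) and *FUS1* at chrIII:71553-71712 (plus strand).
BAR1: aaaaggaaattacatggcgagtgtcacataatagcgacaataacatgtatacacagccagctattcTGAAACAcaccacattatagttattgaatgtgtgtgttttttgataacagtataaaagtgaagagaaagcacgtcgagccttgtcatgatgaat
AGA1: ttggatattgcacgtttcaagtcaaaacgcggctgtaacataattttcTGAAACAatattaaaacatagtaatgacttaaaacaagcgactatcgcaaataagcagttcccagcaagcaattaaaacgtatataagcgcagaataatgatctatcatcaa
FUS1: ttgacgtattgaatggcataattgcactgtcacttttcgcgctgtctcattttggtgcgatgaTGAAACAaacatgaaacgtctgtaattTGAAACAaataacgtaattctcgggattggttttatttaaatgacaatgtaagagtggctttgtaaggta

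The remaining lists are given beside 4.5% called higher and 10.5% called lower among all tested genes. Lysine synthesis (9 genes, median 0.53) and the vacuolar proteases (15 genes, 0.53) gave 0 calls by edgeR or DESeq2, with an unadjusted p under 0.05 for 5 higher and 3 lower and for 11 higher and 2 lower genes. Methionine and sulfate assimilation (21 genes, -0.06) and ER folding (11 genes, -0.33) likewise gave 0, with 6 higher and 9 lower and 2 higher and 7 lower genes at that p. The SUMO-targeted ligase and Cdc48 list (7 genes, 0.27) gave 0, with 6 higher and 1 lower. Of 20 meiosis and sporulation genes 4 were called lower, all at low levels. *SPR3* had the most reads of these, with 10.5, 11.5 and 11.5 CPM in WT and 3.63, 4.197 and 4.43 in line 6, and *SPS2* had overlapping libraries. Of 70 tested small nucleolar RNAs 7 were called higher and 3 lower, with a median of 0.11. snR82 had 35.1, 31.4 and 27.5 CPM in WT and 95.7, 92.97 and 115 in line 6. Of 194 tested genes within 20 kb of a chromosome end 14 were called higher and 25 lower, with a median of -0.05 beside -0.01 for all genes. Antioxidant genes gave 2 rises and 1 fall among 29, with *TSA2*, a peroxiredoxin, at 120.4, 121 and 119 CPM in WT and 298, 298 and 305 in line 6. By the naming rule, the large rises also included *YNL018C* and its paralog *YNL034W*, of unknown function. *YNL018C* had 0.893, 0.773 and 0.488 CPM in WT and 10.4, 11.6 and 10.2 in line 6, and *YNL034W* had 1.11, 1.82 and 1.69 CPM in WT and 8.99, 9.02 and 11.02 in line 6. The large falls also included *DPA10*, at 422, 471 and 461 CPM in WT and 59.1, 61.6 and 71.8 in line 6, *TOS6*, at 85.6, 90.5 and 75.4 CPM in WT and 6.399, 6.22 and 9.09 in line 6, and *NCA3*, at 30.7, 33.3 and 37.01 CPM in WT and 4.54, 4.602 and 4.15 in line 6.

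Line 9 shares the deletion, the loss of the *ULP2* plasmid and the length of passaging, so the difference between the evolved lines was tested directly. Line 6 had 132 genes called higher than line 9 (2.07% of those tested) and 150 called lower (2.35%). Ribosomal genes stood lower in line 6. They made up 2.18% to 2.33% of CPM in line 9, where the late-stage markers summed to 1.94% to 2.02%, below their level in WT and line 6, and the part of growth stage in this difference was not tested. Of the small subunit genes 18 of 57 were called lower than in line 9 and of the large subunit genes 24 of 81, with 0 called higher, and the medians of this difference were -0.84 and -0.91. Of pre-60S genes 13 of 77 were called lower. Against WT, the same medians of line 9 were -0.71 and -0.74 for the ribosomal lists. *HAS1* had 42.99, 41.02 and 39.2 CPM in line 9, between the levels of WT and line 6 (line 6 minus line 9 -1.54, adjusted p = 3.68e-11 by edgeR's quasi-likelihood test). For the cyclin list the direct test gave 0 calls by edgeR and 1 lower by DESeq2, with a median difference of -0.03 and an unadjusted p under 0.05 for 7 higher and 9 lower genes. *CLN2* stood at 24.9, 22.8 and 24.6 CPM in line 9 (difference -0.02, adjusted p = 0.806, SE 0.063). Mitochondrially encoded genes gave 0 calls by either tool, with a median of -0.17 and an unadjusted p under 0.05 for 3 lower genes.

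Several other gene groups differed between the evolved lines. Of the MATa-specific genes 6 of 7 were called higher in line 6 than in line 9, with a median difference of 1.42. *BAR1* had 128, 135 and 139 CPM in line 9 (difference 2.12, SE 0.047, adjusted p = 1e-13 by edgeR's quasi-likelihood test), and *AGA1* had 126, 119 and 133 (2.43, adjusted p = 6.47e-15). Of the heat shock list 6 of 25 were called higher, with *HSP82* at 763, 752 and 804 CPM in line 9 (1.57). Of hexose transporter and sensor genes 7 of 18 were called higher, and *HXT7* stood at 403, 446 and 454. *HXK1* had 906, 934 and 945 CPM in line 9, below WT (1.60, SE 0.04, adjusted p = 2.25e-13). *GDB1* had 863, 874 and 906 CPM in line 9, overlapping WT (1.04), and *CIT2* had 2235, 2235 and 2260, between WT and line 6 (0.63). *COX5B*, at 75.6, 69.3 and 71.96 CPM, and *TSA2*, at 121, 121 and 115, overlapped the WT libraries in line 9 as well (1.67 and 1.33). Of daughter cell separation genes 6 of 13 were called higher in line 6, with a median difference of 0.98. *CTS1*, the chitinase that parts mother and daughter, had 1351, 1403 and 1361 CPM in WT, 1983, 1975 and 1861 in line 6 and 434, 439 and 462 in line 9, so that it lay above WT in 1 line and below it in the other (2.12, adjusted p = 2.18e-14). *OLE1* and *ACC1* were lower in line 6 than in line 9. *OLE1* had 1836, 1844 and 1992 CPM in line 9 (-1.87), and *ACC1* had 1404, 1461 and 1536 (-1.73). *ADH2* had 1123, 1288 and 1247 CPM in line 9, above WT, against its fall in line 6 (-1.74). *DPA10* had 501, 493 and 446 CPM in line 9, overlapping WT (-2.90). *URA2* stood at 2759, 2770 and 2843 CPM in line 9, with no called difference from line 6 (0.05, SE 0.036, adjusted p = 0.231).

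**Figure D4:**
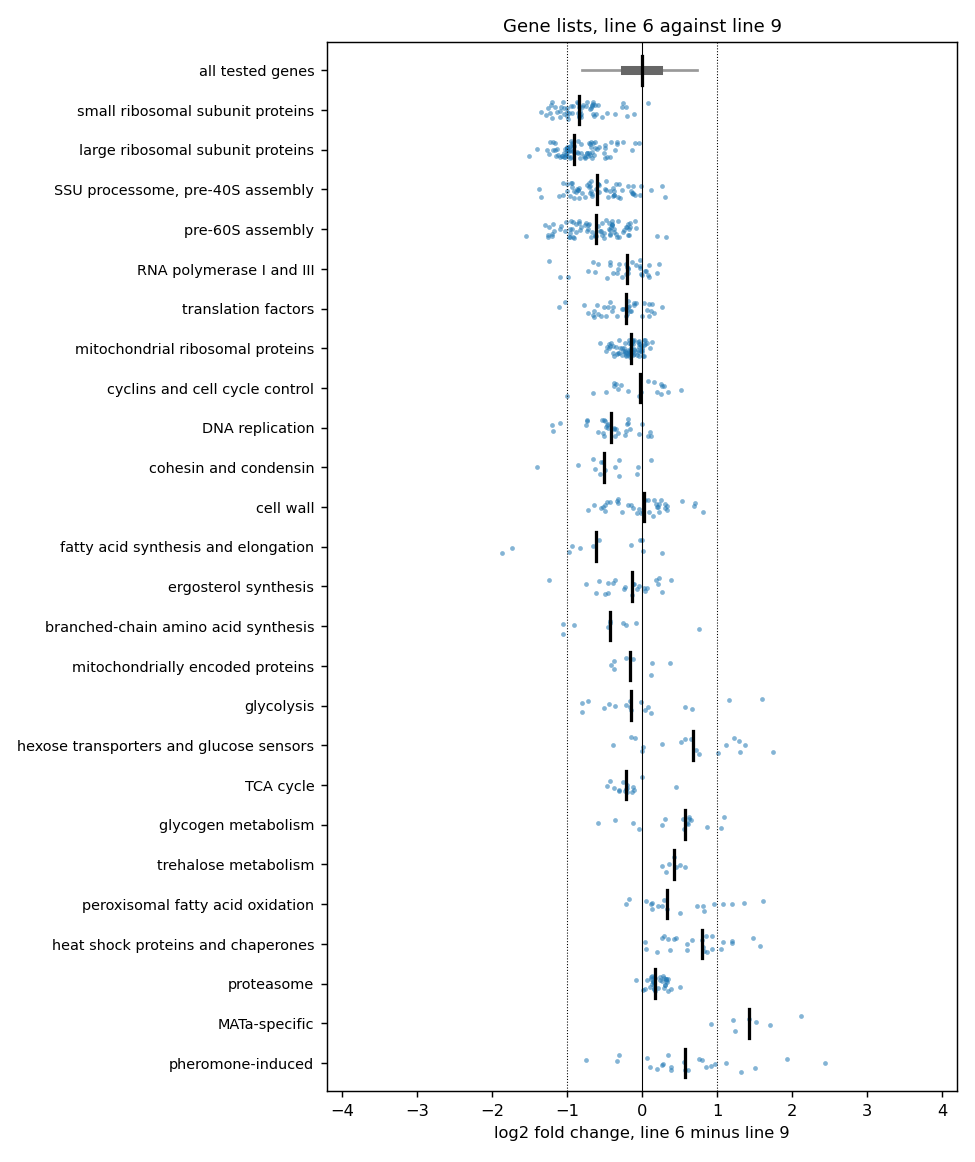
Log2 fold change of line 6 minus line 9 for the members of the same 25 lists, drawn as before. The ribosomal lists centre near -0.9, the cyclin list near 0 and the MATa-specific list near 1.4.

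Nascent *ulp2Δ* cells give the state before passaging. Line 6 had 333 genes called higher than nascent cells (5.23% of those tested) and 803 called lower (12.6%). The medians of line 6 minus nascent were -2.20 and -2.13 for the small and large subunit genes, and the WT values lay between, since the nascent medians against WT were 0.54 and 0.47. The 7 MATa-specific genes differed by a median of 3.27, and *BAR1* had 48.6, 49.1 and 45.4 CPM in nascent cells. The TCA cycle, nuclear respiratory chain and ATP synthase lists were higher in line 6 than in nascent cells by medians of 1.21, 0.97 and 0.94, beside 0.14, 0.14 and -0.01 against WT. In the nascent libraries the genes of chromosomes I and XII lay above the other genes by medians of 0.72 and 0.77 relative to WT, and single genes there hold that shift in this contrast. Line 6 did not have it, with 0.1 and -0.05.

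Of the nuclear chromosomes, XIII stood apart in line 6 from the rest. The median log2 fold change of its 476 tested genes was 0.22 below that of the other genes, at -0.23, -0.20 and -0.21 in the 3 line 6 libraries taken singly. The other nuclear chromosomes ranged from -0.05 to 0.11. On chromosome XIII all 10 windows of 100 kb had a median below that of the other genes, from -0.36 to -0.05, so the shift was spread along the chromosome. Without the genes of the translation lists it was -0.24. The direct difference from line 9 was 0.003, and line 9 against the same WT libraries had -0.24. Chromosome copy number was not measured.

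**Figure D5:**
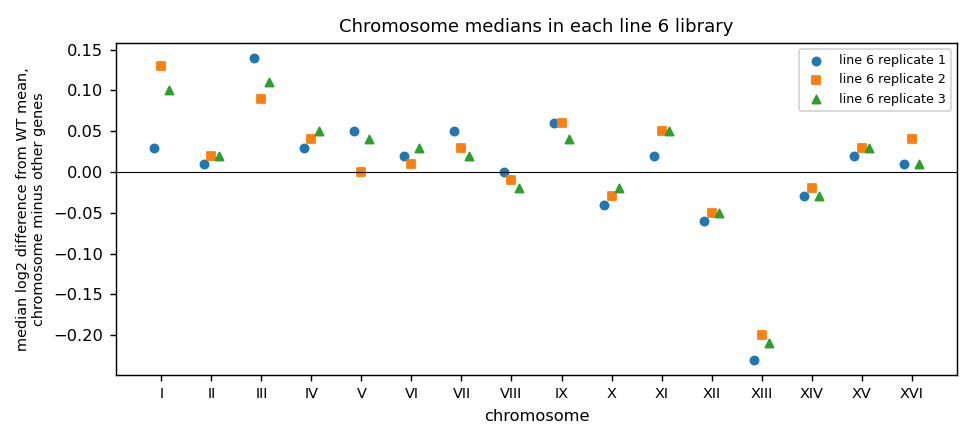
Median log2 difference of each line 6 library from the WT mean for the genes of each nuclear chromosome, minus the median of all other genes. Each symbol is 1 line 6 library. Chromosome XIII lies between -0.23 and -0.20 and the others between -0.06 and 0.14.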

How the data were processed

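RNA was sequenced from yeast described in the study's methods as exponentially growing in YPD, 3 libraries each of WT, nascent ulp2Δ, evolved line 6 and evolved line 9. Per the study's methods and the submitters' processing notes, reads were trimmed with Trim Galore 0.5.0, aligned to sacCer3 with HISAT2 2.1.0 and assembled with StringTie 1.3.3b on SGD gene models, and the authors tested with DESeq2 1.22.1. The deposited values are whole-number counts per gene, not normalised. Neither the step from coverage to counts nor the use of strand is given in the sources used here, so overlapping and antisense genes and near-identical copies are uncertain. Unnamed assembled loci, between 0.0826% and 0.173% of counts in the 12 libraries, were left out.

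Counts were fitted with edgeR 4.0.16 in R 4.3.3 (quasi-likelihood test, TMM, filterByExpr, 12 libraries, a mean per group), and p-values were adjusted by Benjamini-Hochberg over 6372 genes. DESeq2 1.42.0 was the alternative tool. The script was tested on simulated data. Gene names and promoters came from the RefSeq annotation and sequence of R64, to which 6126 of the 7108 named features matched. Genes were drawn for naming as strain checks, as SUMO pathway genes with *SIR2*, and as *HXK1*, *CIT2* and *GDB1*, which the study names. The other rules took the largest 12 called rises and 12 falls with separate libraries and at least 50 counts. They also took up to 4 called members of each list, or all of 5 or fewer, and the one furthest against the rest. The last rule took the 5 largest differences each way from line 9. Not every gene so drawn is given. *SEO1*, *TOS4* and several genes with only a systematic name are left out. *GAL2*, *HXT9*, *URA4* and *FUR1* fall outside these rules and are the remaining called genes of their lists. Any other gene is marked as chosen after its values were seen, is a marker or is shown for its promoter. The members and lists were chosen with earlier results of these data known. The lists of fatty acid, DNA replication, cohesin and chaperone genes and the MCB and SCB elements were added after seeing the data. Replicate numbers did not pair the libraries. A count of 0 was taken to allow up to 3 counts, which covers counting error only. Alternatives were another tool, scaling, count filter, fold threshold, choice of libraries, replicate block, each replicate left out and another promoter window.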

Additional observations from a re-analysis of the deposited data

Results flagged for a closer look

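The difference between line 6 and line 9 was tested directly, and it gave 132 genes higher and 150 lower in line 6. The largest differences by the naming rule are given on the log2 scale, line 6 minus line 9, and any p is adjusted and comes from edgeR's quasi-likelihood fit. Among the higher genes *AGA1* differed by 2.43, *CTS1* by 2.12, *BAR1* by 2.12 and *YNR014W* by 1.96. *HIS6* differed by 4.18, but its line 6 libraries were uneven, with 22, 592 and 397 counts in line 6 and 17, 21 and 23 in line 9, and its adjusted p was 0.0344. Among the lower genes *ACC1* differed by -1.73, *ADH2* by -1.74, *OLE1* by -1.87, *ARG1* by -1.94 and *DPA10* by -2.90. *ARG1*, argininosuccinate synthetase of arginine synthesis, had 316, 308 and 291 CPM in WT, 47.5, 43.3 and 46.2 in line 6 and 168, 179 and 177 in line 9. *YNR014W*, of unknown function, had 16.8, 15.5 and 12.96 CPM in WT, 55.4, 52.2 and 54.1 in line 6 and 12.3, 12.9 and 16.2 in line 9.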

How the results depend on the processing

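Calls against WT were 287 higher and 672 lower. DESeq2 gave 296 and 682, and DESeq2 size factors gave 296 and 662. Library totals gave 229 and 780, so that 22.7% of the calls were higher in place of 29.9%. No count filter gave 293 and 717, a filter of 50 counts 248 and 602, and only the 6 libraries compared 279 and 655. Taking the uneven genes out of the same fit left 282 and 666, which removes their own calls and is no separate check. Leaving out each replicate gave 282 to 297 higher and 664 to 679 lower. A threshold of 1.5-fold gave 819 and 1209, and no fold threshold 2346 and 2372. Against nascent cells, library totals gave 181 higher in place of 333. The replicate block gave 285 higher and 669 lower against WT, 133 and 149 against line 9 and 335 and 803 against nascent cells. Replicate numbers did not pair the libraries, since deviations of same-numbered libraries correlated at 0.05, -0.19 and -0.13. The median of nitrogen catabolite repressed genes, 0.03, was -0.08 with library totals and -0.01 without WT replicate 3, and that of subtelomeric genes, -0.05, was 0 with the filter of 50 counts. Other list medians at least as large as their spread over the line 6 replicates kept their direction. For medians smaller than that spread, a change of direction was not counted. Of the other list values, 709 moved by less than the spread and 130 by more. Of named genes, 2567 results kept their call, 38 fell short and 1 passed. With library totals *GDB1* was 0.92, *NTH2* 0.95, *ATH1* 0.93, *PHO89* 0.92, *SOL4* 0.98 and *TIR2* 0.92. Without line 6 replicate 3 *TOF2* was -0.91, and without WT replicate 2 *RAP1* was -0.98 and *SPS2* -0.75, while *FBA1* and *FTR1* fell just short of 2-fold under 1 omission each. The cause was not tested. Shares of promoters with a motif moved outside their 95% Wilson interval in 13 of 58 with a 250-base window.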

Other observations

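Some changes lay in single libraries. *SER3*, a gene of serine synthesis picked with its values in view, had 13, 9883 and 7481 counts in the line 6 libraries and 4703, 4427 and 5202 in WT. *IFH1* had 5060, 30 and 29 counts in line 6. Other groups had such jumps too, with 28, 14118 and 37 counts of *IFH1* in nascent cells and 4861, 5287 and 30 in line 9. Whether RNA levels or the counting of reads differed between these replicates was not tested. Of the 45 genes with such spread in WT or line 6, 5 were called higher and 6 lower. Taking these genes out of the same fit left 282 and 666 calls. The 17 tested features of the mitochondrial genome lay 1.31 below the other genes on the log2 scale by their median, a value of -1.31, with 11 called lower. Single line 6 libraries had -1.12, -1.33 and -1.01.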
